A study of Mus musculus with 6 samples.

Results

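The genes described here are 9 signalling genes that act below TREM2 in microglia: the adaptors Tyrobp and Fcer1g, the Src-family kinases Fgr and Lyn, the kinase Syk, the effectors Plcg2, Btk and Vav1, and the phosphatase Inpp5d. They were chosen by name, as the listed TREM2 downstream signalling genes, and are 9 of the 31053 features in each matrix. All 9 passed the filter on low counts. The question was whether their RNA changed with TREM2 deletion, with tau P301S or with APOE4, and how Fgr differed from its relatives.

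Nuclei from the hippocampus of mice 9.5 months old were sorted for PU.1, a transcription factor of myeloid cells, and sequenced as single-nucleus RNA. There were 6 libraries, 1 for each genotype, and each pooled 3 mice. P301S/E4/TREM2+ and P301S/E4/TREM2- carried tau P301S and human APOE4, P301S/EKO/TREM2+ and P301S/EKO/TREM2- carried tau P301S and lacked Apoe, and E4/TREM2+ and E4/TREM2- carried human APOE4 without tau P301S. TREM2+ marks Trem2 present and TREM2- marks Trem2 deleted. No library had tau P301S with mouse Apoe, and none was free of both changes, so the tau comparison was made on APOE4 and the APOE4 comparison on tau P301S. The promoter of the tau transgene and the form of the Trem2 deletion are not given in the sources used here. Libraries are listed below in the order just given.

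TREM2 is a surface receptor that has no signalling tail of its own. It pairs with TYROBP (also called DAP12), whose cytoplasmic ITAM motif is phosphorylated by Src-family kinases and then binds SYK through its SH2 domains. SYK activates PLCG2, VAV1 and TEC-family kinases such as BTK, while SHIP1, the product of Inpp5d, removes a phosphate from the PI3-kinase product that recruits them.

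After nuclei with under 200 detected genes or over 5% of UMIs from mitochondrial genes were left out, 31738 of 33335 nuclei and 28636665 UMIs (unique molecular identifiers, 1 per captured transcript) remained. By library there were 3582 to 7004 nuclei, 3172124 to 8376816 UMIs and a median of 569 to 915 UMIs per nucleus. A level is given in CPM (UMIs scaled to a library total of 1000000), summed over its nuclei. Where an interval is given, it is a 95% exact binomial interval. Such intervals cover counting error only. All 12 microglia markers were detected in every library, at a summed 14275 CPM or more. Border-associated macrophage markers summed to 391 to 1072 CPM, monocyte or neutrophil markers to 17.9 to 59.6 CPM, and neuron markers to 194 to 2239 CPM. Astrocyte markers summed to 365 to 748 CPM and oligodendrocyte or precursor markers to 192 to 293 CPM. Vascular, fibroblast or choroid plexus markers summed to 110 to 399 CPM. The T, NK or B cell list summed to 14.9 to 111 CPM, although its genes Cd3e and Cd3g were at 0 in every library. Trem2 was 1114, 580, 976, 469, 917 and 348 CPM, so transcripts assigned to it remained in each TREM2- library, and its log2 fold change in the TREM2 comparison was -1.10 ± 0.10 (SE, edgeR adjusted p = 0.00146). Apoe was 1184, 811, 14.2, 9.14, 187 and 239 CPM, lowest in both P301S/EKO libraries. Of 33220 different barcodes, 115 occurred in more than 1 library.

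Promoters are shown because the nuclei were sorted for PU.1, whose classical binding core is GAGGAA (the PU box), and because Fgr was the only member that passed the test in any comparison. The sequences are the 250 bases before the start site, from RefSeq (GRCm38.p6, plus strand, 5′ to 3′), with GAGGAA in capitals: Fgr at chr4:132973845-132974094, Inpp5d at chr1:87620062-87620311 and Vav1 at chr17:57278850-57279099.
Fgr: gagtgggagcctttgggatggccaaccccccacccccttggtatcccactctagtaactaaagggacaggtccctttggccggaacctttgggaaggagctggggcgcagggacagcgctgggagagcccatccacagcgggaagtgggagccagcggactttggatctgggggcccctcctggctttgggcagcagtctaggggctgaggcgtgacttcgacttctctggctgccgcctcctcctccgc
Inpp5d: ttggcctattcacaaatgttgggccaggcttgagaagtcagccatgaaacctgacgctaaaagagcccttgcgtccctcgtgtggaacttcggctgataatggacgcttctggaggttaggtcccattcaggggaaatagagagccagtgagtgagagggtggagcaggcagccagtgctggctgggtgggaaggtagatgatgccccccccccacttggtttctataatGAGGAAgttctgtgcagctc
Vav1: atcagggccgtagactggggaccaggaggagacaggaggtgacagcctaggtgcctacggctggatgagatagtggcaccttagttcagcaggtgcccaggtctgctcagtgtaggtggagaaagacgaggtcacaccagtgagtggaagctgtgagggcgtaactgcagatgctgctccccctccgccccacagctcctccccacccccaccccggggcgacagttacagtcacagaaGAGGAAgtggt
GAGGAA or its reverse complement TTCCTC was looked for on both strands in 8 such windows, which covered 7 of the members. The letters were found in 3 windows, those of Inpp5d, Vav1 and the downstream start of Syk, beginning 20, 11 and 9 bases before the start site. They were not in the windows of Fgr, Fcer1g, Plcg2, Btk or the upstream start of Syk. Of all 32851 promoters listed by RefSeq, 7639 windows (23.3%) held them. A match in letters is not a bound site, and binding was not measured.

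Across the 6 libraries Fgr stood apart from the other members in how far its level moved. Fgr encodes a Src-family kinase of myeloid cells (ENSMUSG00000028874, GRCm38 4:132974095-133001910, plus strand, overlapped by no other annotated gene). It was 209, 76.3, 127, 30.9, 15.5 and 9.21 CPM, from 1209, 639, 475, 98, 55 and 37 UMIs. The libraries ordered first by tau P301S and then, within each background, with TREM2+ above TREM2-. The highest value was 22.7 times the lowest, whereas this ratio lay between 1.16 for Btk and 1.50 for Vav1 in the other 8 members. The ranges of the 3 TREM2+ and the 3 TREM2- libraries overlapped for each of the 9 members, Fgr included. Each range spans 3 backgrounds, and the share of all genes with such an overlap was not worked out, so the overlap is not read as a result.

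**Figure D1:**
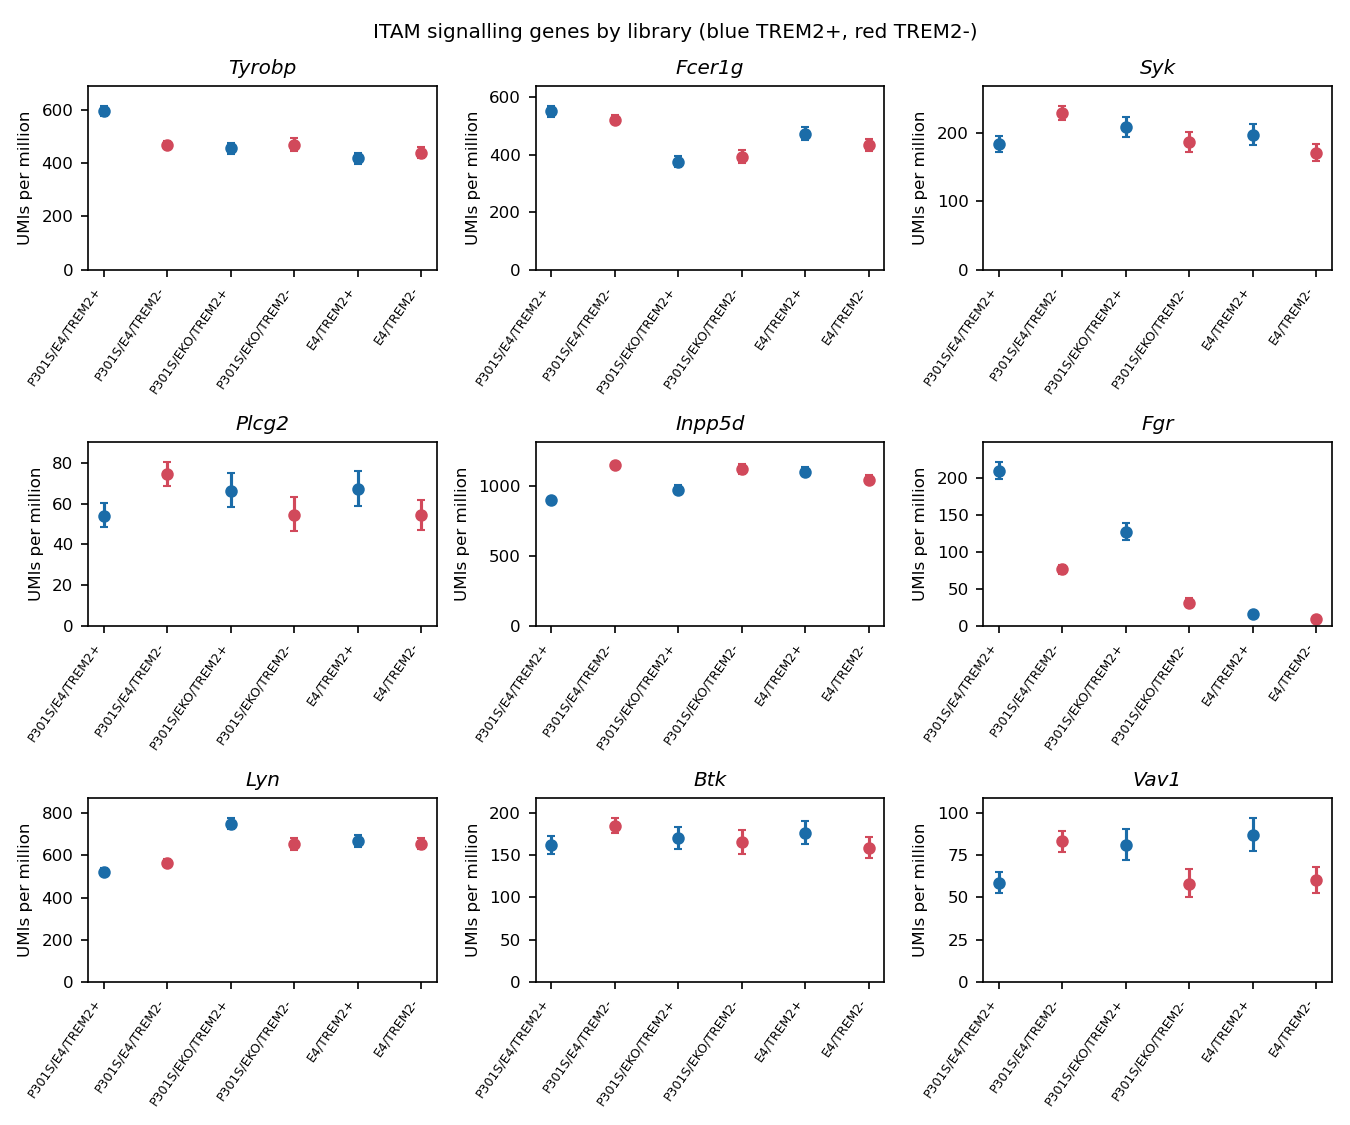
Level of each of the 9 genes in CPM (y axis, from 0) in the 6 libraries (x axis). Points are single libraries, blue for TREM2+ and red for TREM2-, and bars are 95% exact binomial intervals of the UMI count. Fgr spans 9.21 to 209 CPM, while no other member varies by more than 1.50 times.

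The adaptors stayed within narrow ranges. Tyrobp, the adaptor that TREM2 pairs with (ENSMUSG00000030579, 7:30413760-30417585), was 595, 470, 455, 469, 418 and 438 CPM. P301S/E4/TREM2+ was the highest and the other 5 libraries lay close together. Fcer1g, the Fc receptor gamma chain (ENSMUSG00000058715, 1:171229572-171234365, minus strand), was 550, 520, 374, 393, 472 and 431 CPM. Both P301S/E4 libraries were above the other 4, and both P301S/EKO libraries were the lowest.

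The kinases next to the adaptors did not move as Fgr did. Lyn, the other Src-family member of the list (ENSMUSG00000042228, 4:3678115-3813122), was 524, 565, 751, 653, 668 and 656 CPM. Both P301S/E4 libraries were the lowest for Lyn, while P301S/E4/TREM2+ was the highest for Fgr. Syk (ENSMUSG00000021457, 13:52583173-52648792), which binds phosphorylated ITAMs, was 184, 230, 209, 187, 198 and 171 CPM. Its highest value was in P301S/E4/TREM2- and its lowest in E4/TREM2-, so the TREM2- libraries held both ends of its range. Gm26857, which overlaps Lyn on the other strand, was 54.0 to 87.2 CPM, and reads of the pair can be told apart only if the counting used strand.

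The effectors below SYK and the phosphatase followed a common order within P301S/E4. Plcg2, the phospholipase (ENSMUSG00000034330, 8:117498291-117635142), was 54.2, 74.6, 66.4, 54.5, 67.2 and 54.3 CPM. Vav1, a guanine nucleotide exchange factor (ENSMUSG00000034116, 17:57279100-57328031), was 58.3, 83.1, 80.8, 58.0, 86.8 and 60.0 CPM. For both genes TREM2- was above TREM2+ in P301S/E4 and below it in P301S/EKO and E4. Btk, a TEC-family kinase (ENSMUSG00000031264, X:134542336-134583570, minus strand), was 162, 185, 170, 165, 177 and 159 CPM, the narrowest range of the list. Inpp5d (ENSMUSG00000026288, 1:87620312-87720507) was 896, 1148, 973, 1116, 1101 and 1042 CPM. Inpp5d was lowest in the library in which Fgr was highest. Vav1 lies 8.93 Mb from Trem2 on the same chromosome, and strain-derived sequence around the deleted gene was not analysed here.

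TREM2 deletion lowered Fgr and no other member passed the test. In an additive fit over the 6 libraries with background as a term (edgeR quasi-likelihood test, Benjamini-Hochberg adjustment over 12515 genes, called at 0.05 or less), Fgr fell by 1.52 on the log2 scale (SE 0.19, adjusted p = 0.00839) and ranked 11th by p. The fit called 14 genes, 0.112% of those tested, with 4 higher (0.032%) and 10 lower (0.0799%), and 1 of the 9 members. The fall of Fgr in these libraries was already known when the list was drawn up, so it is a description of the list and not independent support for it. The other 8 members had log2 fold changes between -0.12 for Vav1 (SE 0.18) and 0.19 for Inpp5d (SE 0.10), with edgeR adjusted p of 0.888 or more. For Lyn the value was -0.01 (SE 0.10). The median of the 9 members was -0.01 and that of all genes tested 0.01. With a single library per genotype the fit has 2 residual degrees of freedom and takes any difference in the TREM2 effect between backgrounds as error. Without P301S/E4/TREM2+ the log2 fold change of Fgr was -1.60 with an edgeR adjusted p of 0.0877, and no member was called.

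Fgr was lower in TREM2- in both backgrounds with tau P301S. The log2 ratio of TREM2- to TREM2+ was -1.46 in P301S/E4 (95% counting interval -1.60 to -1.32), a fold of 0.364. It was -2.04 in P301S/EKO (-2.37 to -1.72), a fold of 0.243. In E4 it was -0.75 (-1.39 to -0.12), from 37 against 55 UMIs, and whether Fgr in these libraries is above background was not settled. Without E4/TREM2+ or without E4/TREM2-, either of which takes the E4 pair out of the TREM2 estimate, the fit gave -1.71 (edgeR adjusted p = 0.000138 and 0.000127). These ratios set 1 library against another and have no test. Of the relatives, Tyrobp was at -0.34 in P301S/E4, 0.04 in P301S/EKO and 0.07 in E4. Lyn was at 0.11, -0.20 and -0.03. The difference between the log2 ratio of Fgr and that of each other member was below 0 in both tau backgrounds and in E4. The means over the 3 were from -1.25 against Vav1 to -1.57 against Inpp5d. These means include E4, where the difference against Vav1 was -0.21. With 37 against 55 Fgr UMIs, the E4 differences are not read as setting Fgr apart. An exact two-sided sign-flip test over 3 backgrounds gives p = 0.25 for each of the 8 genes compared, the smallest it can give, also after adjustment over the 8. Over the 2 tau backgrounds alone such a test cannot go below 0.5.

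The other members divided by background. In P301S/E4, TREM2- was above TREM2+ for Vav1 (log2 ratio 0.51), Plcg2 (0.46), Inpp5d (0.36), Syk (0.32), Btk (0.19) and Lyn (0.11), each with a counting interval above 0, and below it for Tyrobp (-0.34) and Fcer1g (-0.08). In E4 7 of these 8 genes were below 0, with Vav1 at -0.53 and Syk at -0.21, and Tyrobp at 0.07. The E4 medians over all genes, given below by gene length, were also below 0. Lyn at -0.03 and Inpp5d at -0.08 lay near them, and the intervals of Lyn and Btk included 0. The count is therefore not read as a result about the members. Gene length moved with the ratios in the tau backgrounds. Over genes with at least 300 UMIs, the median log2 ratio in P301S/E4 was 0.11 for 3235 genes that span 40 kb or more and -0.11 for 2133 genes under 10 kb, and in P301S/EKO it was -0.09 and 0.03. In E4 it was -0.04 and -0.05, so no such gradient was seen there, although Vav1 and Syk were below 0. The 6 members that were higher in P301S/E4/TREM2- each span over 40 kb, and Tyrobp and Fcer1g are under 10 kb. Whether the length of the genes or the depth of the library has a part in these ratios was not tested. Fgr spans 27816 bases, and genes of 10 to 40 kb had medians of 0.08, -0.07 and -0.09 in the 3 backgrounds.

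**Figure D2:**
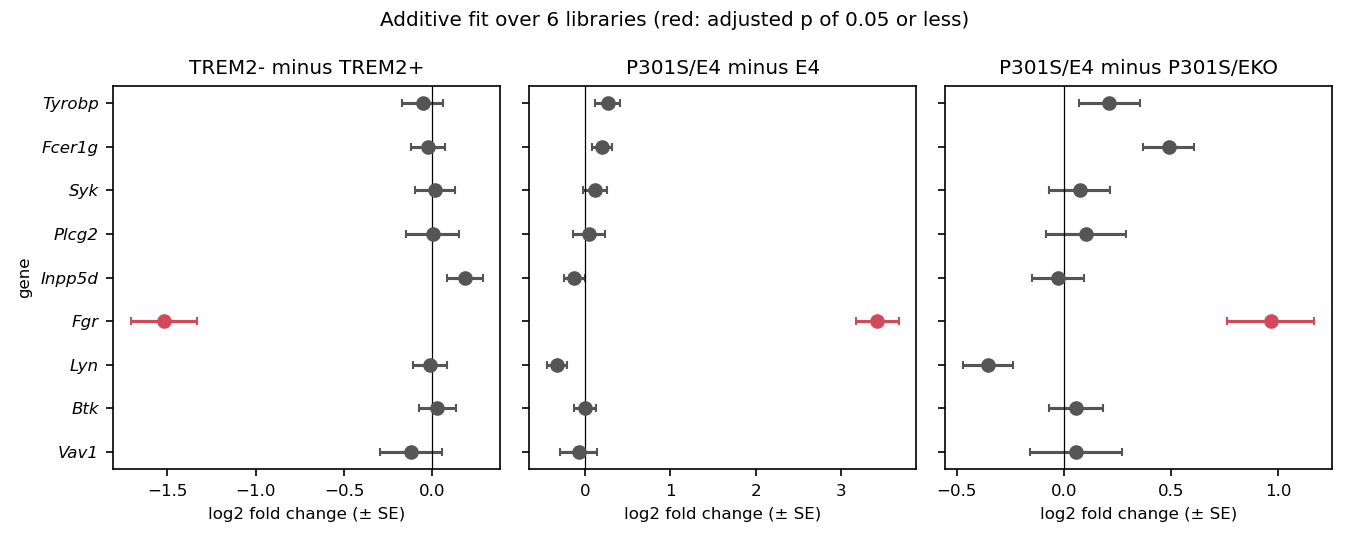
Log2 fold change (x axis) of the 9 genes (y axis) in the additive edgeR fit over 6 libraries, for TREM2- minus TREM2+, P301S/E4 minus E4, and P301S/E4 minus P301S/EKO. Bars are standard errors, and red marks an adjusted p of 0.05 or less. Fgr is the only red gene, at -1.52, 3.42 and 0.97.

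With tau P301S Fgr rose, and no other member passed the test. In P301S/E4 against E4 its log2 fold change was 3.42 (SE 0.25, edgeR adjusted p = 2.43e-05), and it ranked 22nd of 12515 genes by p. By library pair Fgr was 13.5 times higher in P301S/E4/TREM2+ than in E4/TREM2+ (log2 ratio 3.76, counting interval 3.37 to 4.18) and 8.28 times higher in P301S/E4/TREM2- than in E4/TREM2- (3.05, 2.57 to 3.57). The E4 libraries hold 55 and 37 Fgr UMIs, which may in part be background, so these folds compare UMI levels and are not exact sizes of a change in expression. The fit called 2133 genes, 17% of those tested, and 1 of the 9 members, so the members' share lies near the background. Lyn was at -0.33 (SE 0.12, edgeR adjusted p = 0.0841), with log2 ratios of -0.35 in TREM2+ and -0.21 in TREM2-. Tyrobp was at 0.26 (SE 0.14) and Fcer1g at 0.20 (SE 0.12). Syk, Plcg2, Inpp5d, Btk and Vav1 lay between -0.13 and 0.12. The median of the members was 0.05 against 0.00 over all genes.

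APOE4 was compared with loss of Apoe on tau P301S, using the same P301S/E4 libraries as the tau comparison. Fgr rose, with a log2 fold change of 0.97 (SE 0.20, edgeR adjusted p = 0.0292). It was 1.65 times higher in P301S/E4/TREM2+ than in P301S/EKO/TREM2+ and 2.47 times higher in P301S/E4/TREM2- than in P301S/EKO/TREM2-. The fit called 459 genes, 3.67% of those tested, and again 1 of the 9 members. Fcer1g was nearest to the threshold, at 0.49 (SE 0.12, edgeR adjusted p = 0.0506), with log2 ratios of 0.56 in TREM2+ and 0.41 in TREM2-. Lyn was at -0.35 (SE 0.12, edgeR adjusted p = 0.133), and the medians were 0.07 for the members and 0.01 for all genes. The call of Fgr was lost without P301S/EKO/TREM2- (0.66, edgeR adjusted p = 0.125) and with each nucleus thinned to 500 UMIs (0.70, edgeR adjusted p = 0.0747). With thinning Fcer1g was called in its place, at 0.52 (edgeR adjusted p = 0.0457).

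UMIs of the Src family's genes summed to 1018, 915, 1171, 976, 1004 and 924 CPM. The sum, which includes Fgr, was lower in TREM2- than in TREM2+ in each of the 3 backgrounds, which was not tested. In P301S/E4 Fgr alone went from 209 to 76.3 CPM, a larger fall than that of the sum. The rest of the family was therefore not lower in TREM2- there. In P301S/EKO and E4 the sum fell by more than Fgr did. Fgr made up 20.6%, 8.33%, 10.9%, 3.16%, 1.54% and 0.997% of these UMIs, so its share was highest with tau, APOE4 and Trem2 together and lowest in E4/TREM2-. Lyn made up 51.4%, 61.8%, 64.2%, 66.8%, 66.5% and 71.0%. It held most of the family's UMIs in each library and its share was lowest where that of Fgr was highest, which shares of 1 sum can do without a change in Lyn. UMIs are not corrected for how well each gene is captured, so the shares follow a gene from library to library and do not rank the kinases by level.

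**Figure D3:**
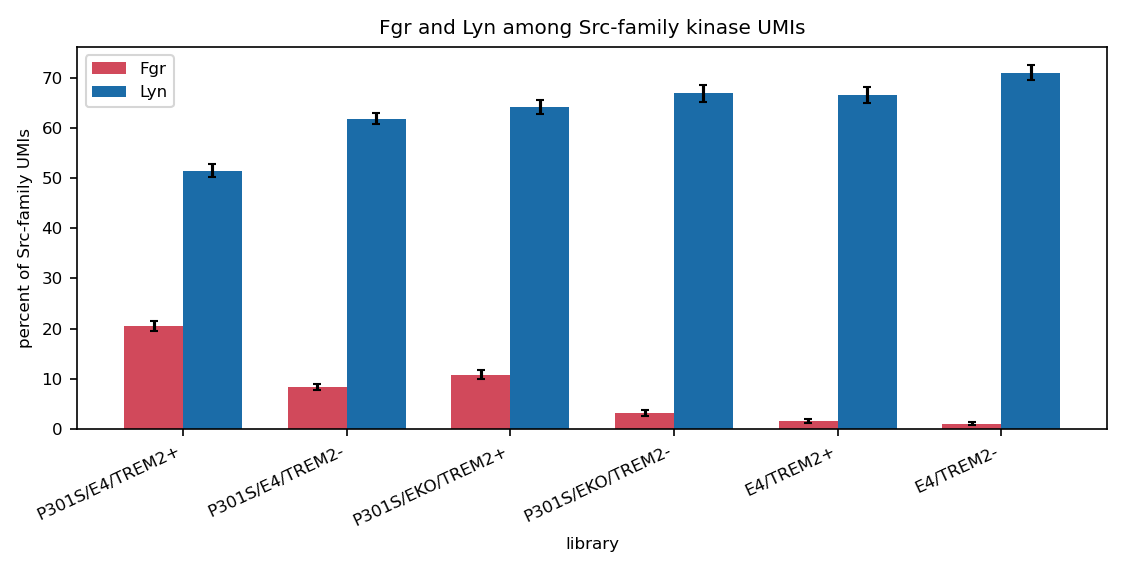
Percent of all Src-family kinase UMIs (y axis, from 0) taken by Fgr and Lyn in each library (x axis). Bars are shares and whiskers 95% exact binomial intervals. Fgr falls from 20.6% in P301S/E4/TREM2+ to 0.997% in E4/TREM2-, and Lyn lies between 51.4% and 71.0%.

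The level of Fgr followed the share of nuclei in which it was detected. With each nucleus thinned to 500 UMIs, which left out 3732 shallower nuclei (1827 from P301S/EKO/TREM2-, then 1488 and 417 from E4 with and without Trem2), an Fgr UMI was found in 8.86%, 3.17%, 6.28%, 1.68%, 0.917% and 0.476% of nuclei. Without thinning the shares were 15.7%, 7.15%, 11.2%, 1.88%, 0.963% and 0.746%. Lyn was found in 23.2%, 24.6%, 30.8%, 27.6%, 28.0% and 28.2% of thinned nuclei. As a guide to background, 1 of 55 nuclei with neuron markers and at most 1 UMI of microglia markers held an Fgr UMI, 1.82% (exact 95% interval 0.0460% to 9.72%), at median depths of 1394 to 3222 UMIs by library. The 1 nucleus was among 6 such nuclei of P301S/EKO/TREM2+. The unthinned shares of both E4 libraries are below 1.82%, and that of P301S/EKO/TREM2-, at 1.88%, lies next to it. A value that rests on 1 nucleus, with that interval and at greater depth, cannot set a background level for any library. Whether Fgr in the E4 libraries is above background was not settled. The ratio of Fgr between these 2 libraries is therefore not read as a change in expression. In the sums, fewer nuclei that express a gene and less RNA per nucleus cannot be told apart.

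Nuclei were then split by a list of 24 genes of disease-associated microglia (DAM), the activated state marked by Lpl, Itgax, Spp1 and Cst7, which holds none of the 9 members. At 500 UMIs per nucleus, 3 or more DAM UMIs were found in 75.1%, 77.5%, 47.5%, 41.8%, 32.2% and 39.0% of nuclei. That class was thus common without tau P301S, and on APOE4 it was no rarer without Trem2. It does not match nuclei for the activated state. In nuclei thinned to 500 UMIs with 0, 1 to 2 and 3 or more DAM UMIs, Fgr was 112, 163 and 209 CPM in P301S/E4/TREM2+. The same classes of P301S/EKO/TREM2+ had 98.6, 107 and 170 CPM. The log2 ratio of nuclei with 3 or more over those with fewer was 0.41 (counting interval 0.12 to 0.71) and 0.69 (0.32 to 1.08) in these libraries. Without Trem2 the series was flatter, at 63.2, 62.1 and 69.6 CPM for P301S/E4/TREM2-. For P301S/EKO/TREM2- it was 35.4, 29.7 and 38.6 CPM, and the log2 ratios of these libraries were 0.16 (-0.30 to 0.65) and 0.32 (-0.50 to 1.14). The intervals of the TREM2+ and TREM2- libraries overlap, and the difference between them was not tested. Lyn had log2 ratios from -0.20 to -0.01 in the 6 libraries, and Tyrobp from 0.05 to 0.46. Vav1 was at 0.58 (0.02 to 1.18) in P301S/E4/TREM2+ and -0.25 (-0.65 to 0.15) in P301S/E4/TREM2-, so the pattern there was not particular to Fgr. In P301S/EKO Vav1 was at 0.35 with Trem2 and 0.11 without, with intervals that include 0.

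The TREM2 comparison was then made within each DAM class, of which the highest is open-ended and may hold nuclei of unequal state. In nuclei with 3 or more DAM UMIs the log2 ratio of TREM2- to TREM2+ was -1.58 in P301S/E4 (-1.83 to -1.34) and -2.14 in P301S/EKO (-2.80 to -1.53). Over the 6 libraries the fit on these nuclei gave -1.81 (edgeR adjusted p = 0.000326). In nuclei with 1 to 2 DAM UMIs the ratios were -1.39 and -1.85, again with intervals below 0. In nuclei with 0 DAM UMIs, of which there were 161 to 612 by library, the fit gave -1.03 and did not pass the test (edgeR adjusted p = 0.934). The ratios in that class were -0.82 (-2.60 to 0.83) in P301S/E4 and -1.48 (-2.99 to -0.14) in P301S/EKO. There TREM2+ and TREM2- had 9 and 6 Fgr UMIs in P301S/E4 and 17 and 7 in P301S/EKO.

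**Figure D4:**
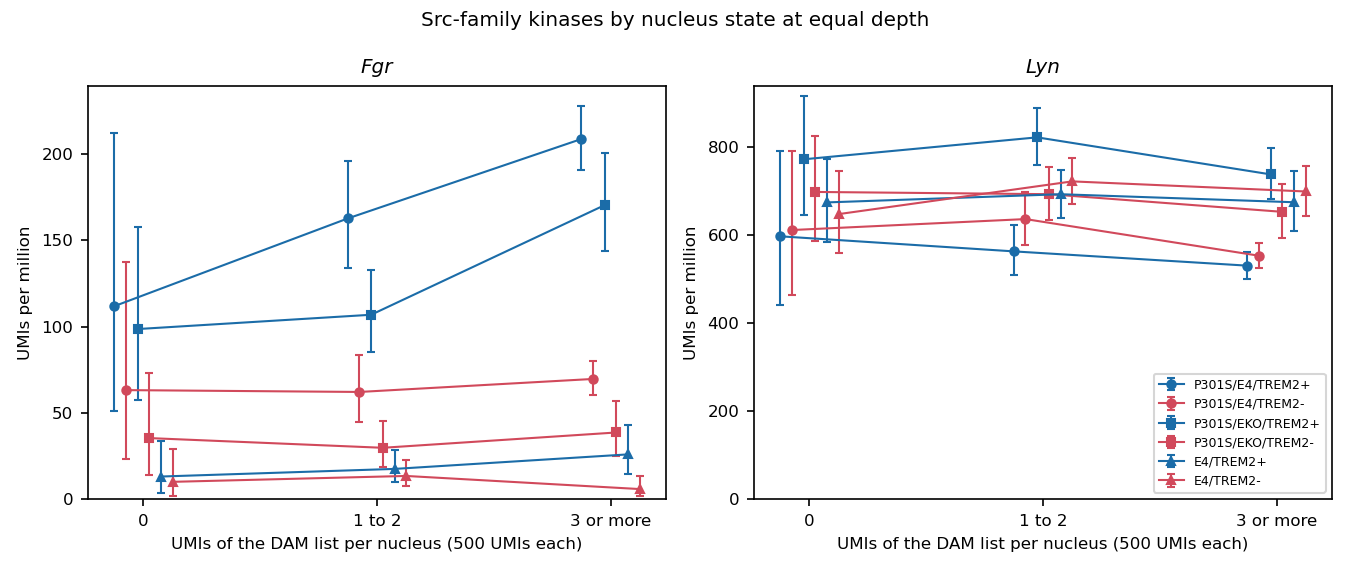
Fgr and Lyn in CPM (y axes, from 0) in nuclei thinned to 500 UMIs, by the number of UMIs of the 24-gene DAM list (x axis). Lines are libraries, blue for TREM2+ and red for TREM2-, with circles for P301S/E4, squares for P301S/EKO and triangles for E4. Bars are 95% exact binomial intervals. Fgr reaches 209 and 170 CPM in the highest class of the TREM2+ libraries with tau and 69.6 and 38.6 CPM in their TREM2- counterparts.

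Nuclei were also split by Lpl, Itgax and Spp1, markers whose induction is known to need TREM2. In P301S/E4/TREM2+ Fgr was 249 CPM in 1576 nuclei with a UMI of any of them and 178 CPM in 4610 without. In P301S/E4/TREM2- it was 68.5 CPM in 584 nuclei and 67.9 CPM in 6420. The share of nuclei with such a UMI was 25.5% and 8.34% in these libraries. Among nuclei without one the log2 ratio of TREM2- to TREM2+ was -1.39 (-1.63 to -1.15) in P301S/E4 and -1.99 (-2.46 to -1.54) in P301S/EKO. Among nuclei with one it was -1.86 (-2.60 to -1.19) in P301S/E4 and -1.37 (-3.34 to 0.15) in P301S/EKO, the latter from 4 against 28 UMIs. The part of the activated state in the fall of Fgr was not tested. A nucleus without such a UMI at 500 UMIs may still express them.

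Nuclei with a Gpnmb UMI were an exception in P301S/E4/TREM2-. Gpnmb, a glycoprotein of lysosome-rich macrophages, was 225 and 302 CPM in the P301S/E4 libraries and at most 8.56 CPM in the other 4. The split by Gpnmb was chosen after its values were seen. In P301S/E4/TREM2- Fgr was 195 CPM (142 to 259) in 473 nuclei with a Gpnmb UMI and 58.8 CPM (50.8 to 67.7) in 6531 without, a log2 ratio of 1.73 (1.23 to 2.20). In P301S/E4/TREM2+ it was 207 CPM (147 to 283) in 377 nuclei and 195 CPM (179 to 212) in 5809, a log2 ratio of 0.08 (-0.42 to 0.55). Among nuclei with a Gpnmb UMI the log2 ratio of TREM2- to TREM2+ was -0.09 (-0.74 to 0.56), and among those without it was -1.73 (-1.97 to -1.49).

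The Gpnmb nuclei of P301S/E4/TREM2- also held more RNA of Ahnak and Cd38. Ahnak was 165 CPM in them against 22.7 CPM in nuclei without Gpnmb, and Cd38 was 169 against 35.2 CPM. In P301S/E4/TREM2+ Ahnak was 0 against 8.26 CPM and Cd38 21.2 against 16.9 CPM. Mrc1, a border-associated macrophage marker, was lower with Gpnmb, at 25.4 against 140 CPM in TREM2-. Whether these nuclei are of another cell type, and their part in the level of Fgr, was not tested. No other member had an interval above 0. In the Gpnmb nuclei of P301S/E4/TREM2- Fcer1g was at a log2 ratio of -0.53 (-0.85 to -0.22), Inpp5d at -0.38 (-0.58 to -0.18), Plcg2 at 0.47 (-0.18 to 1.07), Syk at 0.33 (-0.06 to 0.70) and Lyn at -0.17 (-0.44 to 0.10). With every nucleus left out that held a Gpnmb UMI before thinning, the TREM2 fit gave -1.64 for Fgr (edgeR adjusted p = 0.00931). That set held 562 nuclei in P301S/E4/TREM2+ and 765 in P301S/E4/TREM2-, more than the thinned split above.

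**Figure D5:**
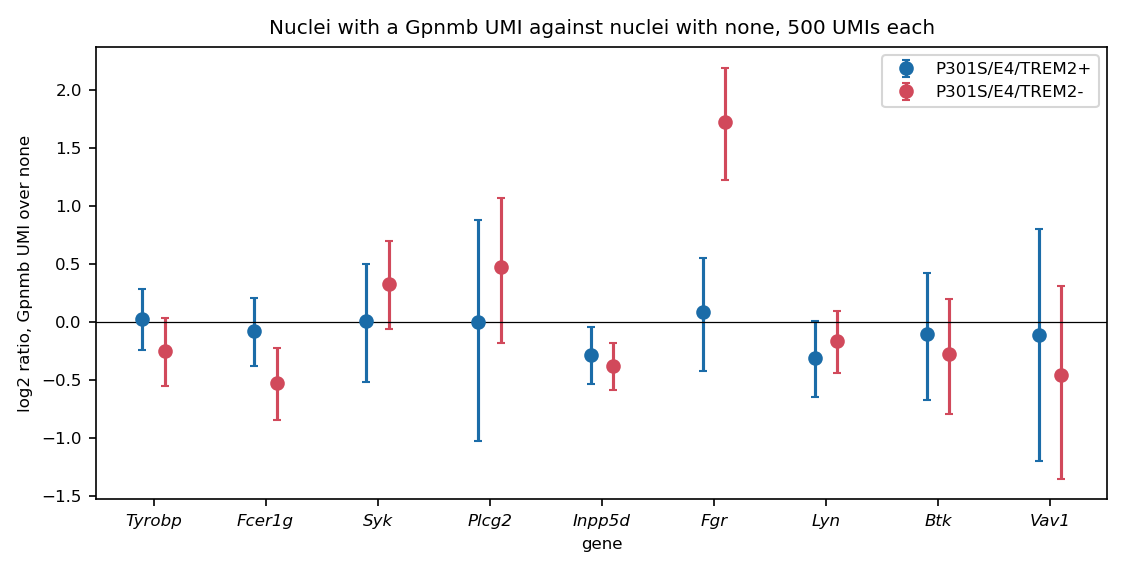
Log2 ratio (y axis) of each gene (x axis) between nuclei with a Gpnmb UMI and nuclei with none, in P301S/E4/TREM2+ (blue) and P301S/E4/TREM2- (red), each nucleus thinned to 500 UMIs. Bars are 95% counting intervals. Fgr in P301S/E4/TREM2- is at 1.73, and the other members lie between -0.53 and 0.47 in both libraries.

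The authors' deposited tables set nuclei against nuclei, and their log base is not stated. In the authors' deposited table of TERM nuclei, a microglial state the study named, against homeostatic nuclei, Fgr had a log fold change of 1.62 (the authors' adjusted p over nuclei 1.47e-29) and Syk one of 0.50. In the same authors' deposited table the other members lay between -0.17 for Inpp5d and 0.28 for Plcg2. In the authors' deposited table of P301S/E4/TREM2+ against P301S/E4/TREM2-, Fgr was at 0.61 with an adjusted p over nuclei of 1, Plcg2 at -0.71, Syk at -0.64 and Inpp5d at -0.53 (7.46e-08). The signs in the authors' deposited table are those of the library sums for each of these 4 genes, with TREM2+ higher for Fgr and lower for the others. Only signs are compared, since the log base and the nuclei behind that table were not established here. In the library sums the log2 ratio of TREM2- to TREM2+ was -1.46 for Fgr and 0.36 for Inpp5d. Nuclei of 1 pool are not replicates of a genotype, so these p-values do not test genotypes.

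The rest of the pathway was read from 5 lists with 97 genes, of which 81 passed the filter on low counts. TREM2 deletion gave no call among them by edgeR, with 8 at an unadjusted p under 0.05, and none by DESeq2, with 3. Over all 12515 genes edgeR called 14, or 0.112%, so no call among 81 genes lies near that share and is not a result about the pathway. Of all genes, 778 had such an unadjusted p by edgeR and 296 by DESeq2. Among the kinases most like Fgr, 4 of 7 Src-family genes outside the members were tested, and none was called in any of the 3 fits by edgeR or DESeq2. The edgeR shares over all genes were 0.112%, 17% and 3.67% in the TREM2, tau and APOE4 fits, so no call lies near them for 4 genes. For edgeR 0, 1 and 1 of them had an unadjusted p under 0.05 in the TREM2, tau and APOE4 fits, and for DESeq2 0, 1 and 0. Their medians in that order were -0.17, -0.02 and -0.22. Fyn was at -0.51 (SE 0.29) in the TREM2 fit, from 7.998 to 19.6 CPM in the P301S/E4 libraries.

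With tau P301S, 16 of the 81 pathway genes rose and 8 fell, beside 7.8% and 9.24% of all genes. DESeq2 called 15 of them in all, against 24 by edgeR. Receptors moved in both directions. Of 11 ITIM receptors, which recruit phosphatases against ITAM signals, Cd300lf rose (log2 fold change 5.18), Lilrb4a rose (2.60), as did Pirb (1.03) and Fcgr2b, while Siglece (-2.03) and Pecam1 (-1.29) fell. Cd300lf was 87.4, 226, 65.3, 49.2, 4.50 and 3.49 CPM, so all 4 libraries with tau were above both E4 libraries. Of 13 receptors that signal through ITAM adaptors or lie beside them, Cd300lb (4.54), Pira2 (2.71) and Fcgr4 (1.62) rose and Siglech (-1.12), Csf1r and Itgam fell. Cd300lb and Pira2 were each under 1 CPM in both E4 libraries, so their fold changes depend on very few UMIs. Pira2 and Pirb belong to a family of near-identical genes between which reads may be split.

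Genes around and below SYK were also called with tau. Of 19 kinases and phosphatases, Inppl1 (SHIP2, the relative of Inpp5d) rose by 1.18, and Ptpn6 (SHP-1), Tec and Ptprc (CD45) also rose, while 2 fell, among them Pag1. Inppl1 was 65.4, 79.1, 58.1, 53.6, 30.9 and 30.6 CPM, whereas Inpp5d itself was not called. Of 34 scaffolds and effectors, Gab3 (1.10), Sh3bp2 (1.05), Skap2, Pik3cb and Blnk rose and Pik3r1 fell. The medians were -0.01 for the kinases and phosphatases and 0.18 for the scaffolds and effectors, against 0.00 for all genes.

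With APOE4, 5 of the 81 pathway genes rose and 2 fell, beside 1.8% and 1.87% of all genes. DESeq2 called 3 in all, against these 7, and none of the scaffolds and effectors, the list that holds Sh3bp2, where 4 had an unadjusted p under 0.05. The edgeR calls were Cd300lb (1.95), Cd300lf (1.33), Lilrb4a (1.31), Sh3bp2 (0.62) and Fcgr2b (0.60) upwards and Siglece (-1.29) and Siglech (-0.75) downwards, each with an edgeR adjusted p between 0.00538 and 0.0459. Lilrb4a was 171, 138, 84.3, 43.8, 23.6 and 25.2 CPM. Both P301S/E4 libraries were above both P301S/EKO libraries, and these above both E4 libraries. Its TREM2 log2 fold change of -0.40 was not called. The P301S/E4 libraries enter both this comparison and that of tau, so a gene high in them is high in both.

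The genes most like Fgr over the 6 libraries were searched among 9167 tested genes with at least 300 UMIs. The 10 with the highest Pearson r of log2 CPM (prior count 2) were Zfp958, Icam1, Prkch, Znrf2, Apbb2, Ptpn6, Mitf, Cdk17, Gm10521 and Rnf111, with r from 0.991 to 0.996. Their range was smaller than that of Fgr: Apbb2 was 270, 177, 210, 128, 91.9 and 64.7 CPM and Mitf, a transcription factor of lysosomal and myeloid genes, was 236, 180, 195, 127, 89.7 and 74.0 CPM. In both, as in Fgr, tau libraries were above E4 libraries and TREM2+ above TREM2- within each background, an order that follows from the choice by r. Apbb2 and Mitf had the largest tau log2 fold changes of the 10, at 1.46 and 1.29. Rnf111, by contrast, stayed between 305 and 363 CPM. Ptpn6 was the only gene of the 5 pathway lists among the 10. Among the members r with Fgr was 0.61 for Tyrobp, 0.30 for Syk, 0.16 for Fcer1g, 0.01 for Plcg2, -0.08 for Vav1, -0.27 for Btk, -0.53 for Lyn and -0.76 for Inpp5d. These values describe 6 points that share libraries, depth and background, and carry no test.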

How the data were processed

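The authors deposited 1 matrix of raw UMI counts per library, written by software version 3.0.1 per the file headers. The submitters' processing notes name Cell Ranger 3.0.1 and mm10. The authors' deposited tables of comparisons held a log fold change, taken as a score because its base is not stated, and p-values and adjusted p-values over nuclei, per the file headers. Whether introns and strand were used in counting is not given in the sources used here. Nuclei, UMIs and genes were read as deposited. UMI counts were summed per library over nuclei with at least 200 genes and at most 5% of UMIs from mitochondrial genes. No doublet caller was run and no nuclei were removed as doublets here. Per the labels' protocols, doublets were gated out in the sort.

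The library sums were fitted with TMM factors in edgeR 4.0.16 under R 4.3.3, filterByExpr by TREM2 genotype, background and TREM2 genotype as terms and the quasi-likelihood F test. The fit covered 12515 genes, with 2 residual and 8.60 prior degrees of freedom and a common dispersion of 0.0171. P-values were Benjamini-Hochberg adjusted over all genes, and the SE is the absolute log2 fold change over the square root of F. The contrasts were TREM2- minus TREM2+, P301S/E4 minus E4 and P301S/E4 minus P301S/EKO. Pools were not replicated, so p-values rest on the departures from additivity among 6 pools. DESeq2 1.42.0, other scalings, other filters on nuclei and genes, thinning to 500 or 300 UMIs and leaving out each library were alternatives. The fit was checked on simulated counts. Ratios between 2 libraries carry exact conditional binomial intervals, and shares and CPM carry exact binomial intervals, all at 95%. Annotation is GENCODE vM21 (GRCm38), and promoters are from RefSeq.

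The members, gene lists and tests were chosen with earlier results of these data known. Named genes were all members, every called pathway gene up to the 10 with the largest absolute log2 fold change in each fit, the 10 genes most like Fgr, and Trem2 and Apoe. Lpl, Itgax, Spp1, Gpnmb, Ahnak, Cd38 and Mrc1, and further called pathway genes, were added after their values were seen. Some genes counted in the lists are not reported by name here.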

Additional observations from a re-analysis of the deposited data

Results flagged for a closer look

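Several members had log2 ratios of opposite sign under the same contrast, each with a counting interval that excludes 0, and the difference itself was not tested in any of these cases. For TREM2- over TREM2+, Syk was at 0.32 in P301S/E4, -0.16 in P301S/EKO and -0.21 in E4. Plcg2 was at 0.46 in P301S/E4 and -0.31 in E4. Inpp5d was at 0.36 in P301S/E4, 0.20 in P301S/EKO and -0.079 in E4. Lyn was at 0.11 in P301S/E4 and -0.20 in P301S/EKO. Vav1 was at 0.51 in P301S/E4, -0.48 in P301S/EKO and -0.53 in E4. The ratios of this section scale by library totals alone. The TMM factors of the fit, left out here, ran from 0.957 in E4/TREM2- to 1.03 in P301S/EKO/TREM2+. The intervals of Syk in P301S/EKO, Inpp5d in E4 and Plcg2 in E4 ended close to 0, at -0.0053, -0.016 and -0.036. Whether such signs hold under those factors was not tested.

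For P301S/E4 over E4 the sign differed between TREM2+ and TREM2- for 3 members. Plcg2 was at -0.31 with Trem2 and 0.46 without, Inpp5d at -0.30 and 0.14, and Vav1 at -0.57 and 0.47. For P301S/E4 over P301S/EKO, Syk was at -0.18 with Trem2 and 0.30 without, Plcg2 at -0.29 and 0.45, and Vav1 at -0.47 and 0.52. Each of these tau and APOE4 ratios contains a P301S/E4 library, and P301S/E4/TREM2- is the deepest of the 6, with a median of 915 UMIs per nucleus and 29.1% of nuclei holding markers of another cell class, against 775 and 21.0% in P301S/E4/TREM2+. The part of depth and of these nuclei in the opposite signs was not tested.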

How the results depend on the processing

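Fgr kept its direction in each fit under each alternative run. Leaving out 1 library gave log2 fold changes of -1.71 to -1.25 with TREM2 deletion, 2.85 to 3.87 with tau and 0.66 to 1.39 with APOE4. The TREM2 call was lost without P301S/E4/TREM2+ (-1.60) and in nuclei with 0 DAM UMIs (-1.03), and the APOE4 call without P301S/EKO/TREM2- (0.66) and after thinning (0.70). Leaving out 1 library gave 11 to 114 called genes for TREM2, 1083 to 2788 for tau and 282 to 1300 for APOE4. For TREM2 it was 99 without P301S/E4/TREM2-, 111 and 114 without P301S/EKO/TREM2+ and TREM2-, and 50 without either E4 library. For tau it was 1083 without E4/TREM2-. For APOE4 it was 1300 without P301S/E4/TREM2+, 739 without P301S/EKO/TREM2+ and 282 without P301S/EKO/TREM2-. Members called were 0 to 1, 1 to 3 and 0 to 2. With no filter on genes the TREM2 fit called 226 and the APOE4 fit 1258. DESeq2 called 1347 for tau and 297 for APOE4, thinning 1416 and 244, and removal of nuclei with other-class markers 263 for APOE4. In that last setting 2 members were called for tau, with Lyn at -0.42, and for APOE4 2 were called with no filter or at least 500 genes per nucleus, with Fcer1g at 0.52 and 0.55.

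Of the members' log2 fold changes under alternatives, 320 kept direction and call, 4 lost the call, 7 gained one and 50 changed sign, none of them of Fgr and most near 0. With library totals alone the TREM2 value was -0.0095 for Syk and -0.022 for Plcg2. Plcg2 was also at -0.0052 with DESeq2, -0.0057 with no filter and -0.013 over all nuclei. Without other-class markers Lyn was at 0.016 for TREM2, Btk at -0.091 for tau and Syk at -0.013 for APOE4. With thinning Btk was at -0.043 for TREM2 and -0.069 for tau, and Vav1 at -0.17 for APOE4. Inpp5d was at 0.0059 for APOE4 with no filter and 0.065 with at least 500 genes. Leaving out 1 library moved TREM2 values between -0.15 and 0.11 for Tyrobp, -0.10 and 0.019 for Fcer1g, -0.14 and 0.093 for Syk, -0.25 and 0.12 for Plcg2, -0.069 and 0.056 for Lyn, -0.052 and 0.086 for Btk, and -0.46 and 0.049 for Vav1. For tau the ranges were -0.083 to 0.35 for Syk, -0.29 to 0.39 for Plcg2, -0.28 to 0.029 for Inpp5d, -0.090 to 0.13 for Btk and -0.55 to 0.39 for Vav1. For APOE4 they were -0.024 to 0.45 for Tyrobp, -0.14 to 0.29 for Syk, -0.24 to 0.44 for Plcg2, -0.13 to 0.087 for Inpp5d, -0.042 to 0.17 for Btk and -0.42 to 0.51 for Vav1. The causes were not tested. Of 108 shares of nuclei with a UMI under other depths, 105 moved, since a share depends on the depth at which it is read.

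No paired analysis was possible because the labels carry no replicate numbers, beyond the pairing of TREM2 genotypes within backgrounds that the fit itself makes. The limits are 1 pool of 3 mice per genotype, 37 to 98 Fgr UMIs in each of the 3 lowest libraries, and median depths of 569 to 915 UMIs per nucleus.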
